A study of Mus musculus with 2 samples.

Results

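The respiratory chain was examined gene by gene in cells from the mouse aorta of 2 ages. The members are all gene names in the count tables that denote a subunit of complexes I to IV or of ATP synthase (complex V): the mitochondrial names mt-Nd, mt-Co, mt-Cytb and mt-Atp, and the nuclear names Nduf (letters a, b, c, s and v followed by a digit), Sdha to Sdhd, Uqcr, Cox4 to Cox8 and Atp5, without pseudogenes. They are 97 of 27998 gene names, of which 84 are nuclear and 13 mitochondrial. Complex I has 44 members (37 nuclear and 7 mitochondrial), complex II has 4 (all nuclear), complex III has 9 (8 and 1), complex IV has 21 (18 and 3) and complex V has 19 (17 and 2). The names are a rule of nomenclature: Ndufa4 counts here as complex I although it is known as a subunit of complex IV, and Atp5sl counts as complex V although it is known as an assembly factor of complex I.

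Both groups were C57BL6/J mice, at 8 weeks (young) and 18 months (old), with no genetic change or drug named in the labels. Aortas were stripped of adventitia, and the inner lining was loosened in trypsin for 10 minutes and lifted off with a fine blade. There was 1 library per age, and the labels do not say how many animals gave cells to it. No difference below therefore has a replicate check or a test, "higher" and "lower" refer to these 2 libraries, and all 95% intervals cover counting error only.

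The young library held 1366 cell barcodes and 12576023 unique molecular identifiers (UMIs, each a counted RNA molecule), with a median of 7558.5 UMIs, and the old library held 3408 barcodes and 19171045 UMIs, with a median of 4737. The libraries shared 11 barcode sequences. After filtering, 1360 young and 3332 old cells were clustered and the clusters named from marker genes. Endothelial-like (EC-like) cells were 1097 young and 2432 old cells, with all 10 endothelial markers detected (9322 and 9035 CPM, that is, UMIs per 1000000 UMIs of the class, against 547 and 1070 CPM in fibroblast-like cells). Fibroblast-like cells were 239 young and 572 old cells, although the labels name endothelium only. The other classes held at most 13 young cells each. EC-like clusters 0 and 1 were mostly young (588 and 398 young cells against 29 and 1 old cells), whereas clusters 6, 7 and 8 were mostly old (519, 1388 and 449 against 11, 32 and 53).

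In the respiratory chain, complexes I, III and IV pass electrons from NADH and succinate (the latter through complex II) to oxygen and pump protons out of the mitochondrial matrix, and complex V makes ATP from the returning protons. Complexes I, III, IV and V are built from subunits of both genomes, while complex II is wholly nuclear. Mitochondrial genes are copied into long transcripts that are cut into single mRNAs, except that mt-Atp8 with mt-Atp6 and mt-Nd4l with mt-Nd4 stay joined in shared mRNAs. Endothelial cells are known for drawing much of their ATP from glycolysis.

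The upstream genes of these shared mRNAs, mt-Atp8 and mt-Nd4l, gave values unlike those of their partners. The last 100 bases of mt-Atp8 and of mt-Nd4l are shown from the GENCODE vM21 transcripts (GRCm38), with the bases that also belong to the partner gene in capitals. In mt-Atp8 (chrM:7766-7969, 204 bases) these are the last 43 bases, which open the reading frame of mt-Atp6 (chrM:7927-8607). In mt-Nd4l (chrM:9877-10173, 297 bases) they are the last 7 bases, which open that of mt-Nd4 (chrM:10167-11544).

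mt-Atp8, chrM:7870-7969: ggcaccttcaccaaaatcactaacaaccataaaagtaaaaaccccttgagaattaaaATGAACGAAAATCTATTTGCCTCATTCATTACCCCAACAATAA
mt-Nd4l, chrM:10074-10173: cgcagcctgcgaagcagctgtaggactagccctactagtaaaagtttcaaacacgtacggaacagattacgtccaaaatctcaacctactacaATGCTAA

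A kit that reads the 3′ end samples such an mRNA near the end of mt-Atp6 or mt-Nd4. How molecules over the overlapping bases were assigned is not given in the sources used here, and its part in the values of the 4 genes was not tested.

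Members of mitochondrial origin were few and abundant, and nuclear members were many and moderate. UMI levels count molecules, so they are not divided by gene length. In young EC-like cells the 13 mitochondrial members together held 21794 CPM and the 84 nuclear members 22847 CPM. The median mitochondrial member stood at 1490 CPM and the median nuclear member at 215 CPM. Levels of mitochondrial members spanned 10.4 CPM (mt-Nd6, the only member on the light strand) to 5479 CPM (mt-Atp6). The 3 most abundant, mt-Atp6, mt-Co1 and mt-Co3, made up 56.9% of the mitochondrial sum in young and 62.1% in old EC-like cells. Among nuclear members, Cox4i1, the largest nuclear subunit of complex IV, was the most abundant in EC-like cells at 1002 (young) and 1301 CPM (old). At least 100 CPM was reached by 67 nuclear members in young and 68 in old EC-like cells.

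Both sums were higher in the old library. In EC-like cells the mitochondrial sum was 21794 (young) and 27924 CPM (old), a log2 ratio of 0.36 (0.35 to 0.37). The nuclear sum was 22847 (young) and 25587 CPM (old), a log2 ratio of 0.16 (0.16 to 0.17). The nuclear members thus differed by less than the mitochondrial ones, but more evenly: 67 of the 77 nuclear members with at least 100 UMIs had a ratio above 1, against 58.9% of all 10068 genes with as many UMIs, and their median log2 ratio was 0.19 against 0.06 over all genes. Across the other scalings tried, 62 to 69 of the 77 were above 1. A fold limit was set at 25% higher in old, or by the same fold (20%) lower. It was passed upward by 11 nuclear members (background 18.0%) and downward by 3 (background 11.8%). With the median of ratios 6 passed it upward.

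In fibroblast-like cells of the same libraries the mitochondrial sum was 22304 (young) and 28461 CPM (old) (log2 ratio 0.35, 0.34 to 0.37). The nuclear sum was 19806 (young) and 21645 CPM (old) (0.13, 0.11 to 0.15). Of 75 nuclear members with at least 100 UMIs, 53 had a ratio above 1 (background 40.3%), with a median of 0.11 against -0.09 over all genes. Here 10 passed the limit upward (background 12.5%) and 6 downward (background 25.5%). With other scalings 55 to 64 of the 75 were above 1. When UMIs of mitochondrial, haemoglobin and ribosomal protein genes were left out of the total, all fibroblast-like ratios moved up by 0.15 on the log2 scale. Ribosomal protein genes held 168898 (young) and 242153 CPM (old) in fibroblast-like cells. In the same cells haemoglobin genes held 25.8 and 1344 CPM, the 9 macrophage markers 21.4 CPM (6 detected, with Cd68, Adgre1 and Fcgr1 at 0) and 143 CPM (8 detected, with Fcgr1 at 0), the 10 EC markers 547 and 1070 CPM, and the 8 fibroblast markers 32688 and 19328 CPM. The part of these differences in the ratios was not tested. Cluster 2 held 99 young and 61 old fibroblast-like cells and cluster 3 held 140 and 511, so the mix of clusters also differed with age. The EC-like and fibroblast-like ratios come from the same 2 libraries and are not independent.

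**Figure D1:**
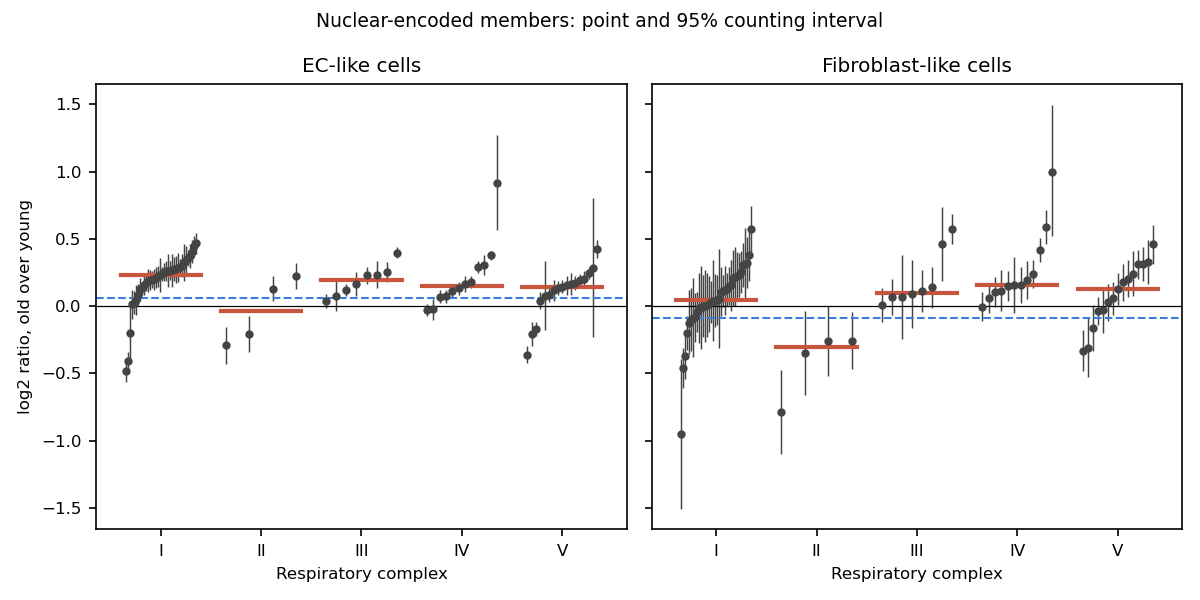
Log2 ratio of old over young (y axis) of nuclear members with at least 100 UMIs, ordered within complexes I to V (x axis), in EC-like and fibroblast-like cells. Points are genes with 95% counting intervals, red bars are medians per complex, and the dashed blue line is the median over all genes (0.06 and -0.09). Most points lie above the dashed line in both classes, and the complex II bar lies below it.

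Several other quantities moved with age in the EC-like class. Haemoglobin genes held 25.1 (young) and 604 CPM (old) in EC-like cells, the 9 macrophage markers 14.5 CPM (6 detected, with Csf1r, Adgre1 and Fcgr1 at 0) and 113 CPM (9 detected), and 13 immediate early genes 7718 and 3753 CPM. White adipocyte markers (Adipoq, Plin1, Cidec, Lep) were at 0 in both. With haemoglobin, ribosomal protein and mitochondrial UMIs left out of the total, the EC-like ratios were 0.39 (mitochondrial) and 0.20 (nuclear). The part of macrophage RNA and of early genes in these ratios was not tested.

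The mitochondrial sum moved with depth and with cluster, the nuclear sum much less. In EC-like cells under 3000 UMIs the mitochondrial sum was 35048 CPM in young (95 cells) and 36222 CPM in old (528 cells), and at 3000 to 5000 UMIs it was 29069 and 30029 CPM. From 5000 to 7500 UMIs it was 22289 (young) and 28772 CPM (old). In the deepest cells, at 15000 UMIs and over, it was 20378 CPM in young (188 cells) and 22146 CPM in old (44 cells). The age difference was therefore largest at intermediate depth, and over all EC-like cells under 5000 UMIs the log2 ratio was 0.067. The nuclear sum was higher in old in each of the 6 depth ranges, from 20867 against 25635 CPM under 3000 UMIs to 23120 against 26570 CPM at 15000 and over.

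**Figure D2:**
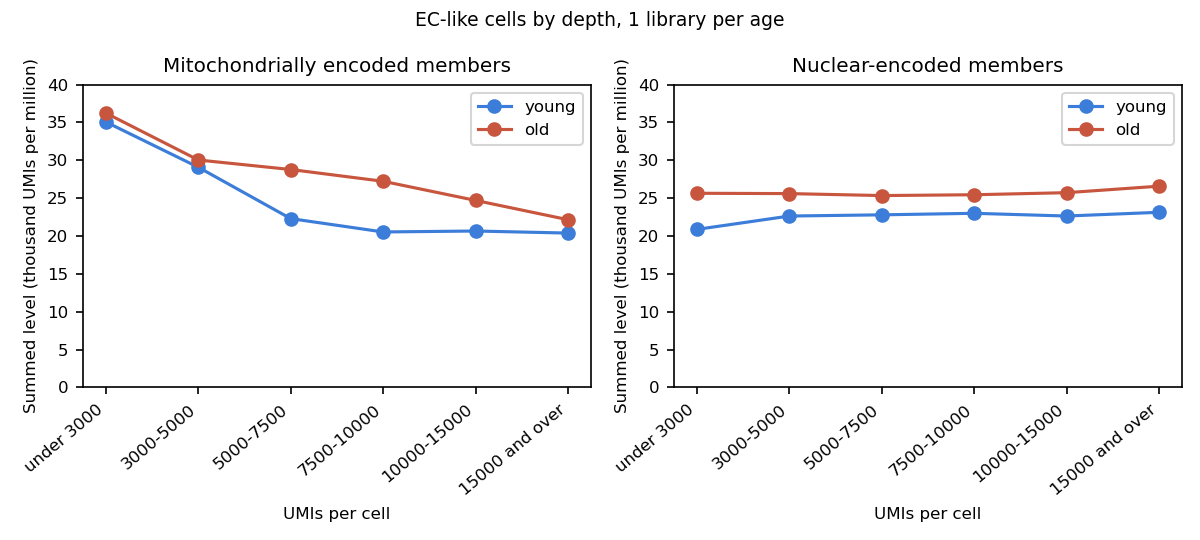
Summed level in units of 1000 CPM (y axis) of mitochondrial (left) and nuclear (right) members in EC-like cells grouped by UMIs per cell (x axis), 1 library per age. The mitochondrial lines meet in shallow cells (35048 and 36222 CPM under 3000 UMIs) and part above 5000 UMIs, whereas the nuclear lines are apart at every depth.

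Within EC-like clusters the mitochondrial difference did not keep one direction. Its log2 ratio was 0.02 in cluster 0, 0.06 in cluster 4 and 0.04 in cluster 6, each with an interval that included 0. It was lower in old in cluster 7 (-0.29, -0.33 to -0.25; 32 young cells) and in cluster 8 (-0.15, -0.19 to -0.12; 53 young cells). The pooled value of 0.36 thus sets mostly young clusters, which had low mitochondrial sums (22943 and 19600 CPM in clusters 0 and 1), against mostly old ones (26017 to 29899 CPM in clusters 6 to 8). Cluster 1 held 1 old cell and allowed no comparison of ages. Since most clusters were nearly all of 1 library, cluster and age cannot be told apart in the pooled value. The same limit holds for the pooled EC-like age ratios of complexes and single genes given below. Of single members, only mt-Atp8 and mt-Co3 were compared within EC-like clusters. The nuclear sum was higher in old in all 5 clusters compared, at 0.13 to 0.36. The highest value was that of cluster 4 (15 young and 46 old cells), which had the lymphatic marker Mmrn1 among its leading genes. In the fibroblast-like clusters 2 and 3 the mitochondrial ratios were 0.56 and 0.37 and the nuclear ratios 0.11 and 0.10.

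Complex I, the NADH dehydrogenase, has the most members. In EC-like cells 33 of 36 counted nuclear members were above 1 (background 58.9%), 7 passed the fold limit upward (background 18.0%) and 2 downward (background 11.8%), so the share past the limit upward was near the background. Their median log2 ratio was 0.23. Ndufb8 (chr19:44548572-44555440) stood at 190 (young) and 263 CPM (old) in EC-like cells (log2 ratio 0.47, 0.39 to 0.55), the highest of the complex. Ndufa11 (chr17:56717767-56722141) stood at 195 and 265 CPM (0.44, 0.37 to 0.52) in EC-like cells, but at 312 and 302 CPM (-0.04, -0.19 to 0.10) in fibroblast-like cells. Both are accessory subunits of the membrane arm.

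The lowest ratios among counted nuclear members of complex I in EC-like cells were those of small membrane-arm subunits. Ndufa1 (chrX:37187588-37191163) was 236 (young) and 169 CPM (old) in EC-like cells (log2 ratio -0.48, -0.56 to -0.40), and -0.37 (-0.54 to -0.20) in fibroblast-like cells. Ndufa3 (chr7:3617373-3620327) was 350 and 264 CPM (-0.41, -0.47 to -0.34) in EC-like cells and -0.46 (-0.61 to -0.31) in fibroblast-like cells. These 2 genes were thus lower in old in both classes, against the trend of the complex.

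The nuclear core subunits, which include those that carry the flavin and the iron-sulphur clusters, did not differ alike. Ndufs7 was 166 (young) and 220 CPM (old) in EC-like cells (0.41, 0.32 to 0.49). Ndufs3, Ndufv1, Ndufv2 and Ndufs8 had log2 ratios of 0.29, 0.27, 0.27 and 0.23. Ndufs1, the largest core subunit, was 39.7 (young) and 34.6 CPM (old) (-0.20, -0.39 to -0.01). In fibroblast-like cells Ndufs1 was 32.1 and 16.6 CPM, from 66 and 50 UMIs (-0.95, -1.51 to -0.40), the lowest ratio of any counted nuclear member there. Over all complex I nuclear members in fibroblast-like cells, 24 of 36 were above 1 (background 40.3%). Their median was 0.04 against -0.09 over all genes.

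The 7 mitochondrial subunits of complex I, which form its proton-pumping membrane core, split by gene. In EC-like cells mt-Nd1 was 1553 (young) and 1997 CPM (old) (0.36, 0.33 to 0.39), and mt-Nd4 was 1490 and 1694 CPM (0.19, 0.16 to 0.21). The other 5 were lower in old. mt-Nd2 was 1016 and 751 CPM (-0.44, -0.48 to -0.40), mt-Nd3 286 and 160 CPM (-0.84, -0.92 to -0.76) and mt-Nd5 228 and 188 CPM (-0.28, -0.36 to -0.20). The less abundant mt-Nd4l was 87.0 and 56.5 CPM (-0.62, -0.76 to -0.48), and mt-Nd6 10.4 and 6.68 CPM from 106 and 97 UMIs (-0.64, -1.05 to -0.23). Since mt-Nd1 and mt-Nd4 hold most of the UMIs, the sum of the 7 had a log2 ratio of 0.06 while their median was -0.44. mt-Nd4l and mt-Nd4, which share an mRNA, thus stood on opposite sides of 1. In fibroblast-like cells the log2 ratios were 0.30 (mt-Nd1), 0.40 (mt-Nd4), -0.21 (mt-Nd2), -0.27 (mt-Nd3), -0.33 (mt-Nd5), -0.44 (mt-Nd4l) and, from 19 and 26 UMIs, -0.09 with an interval of -1.0 to 0.84 (mt-Nd6).

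**Figure D3:**
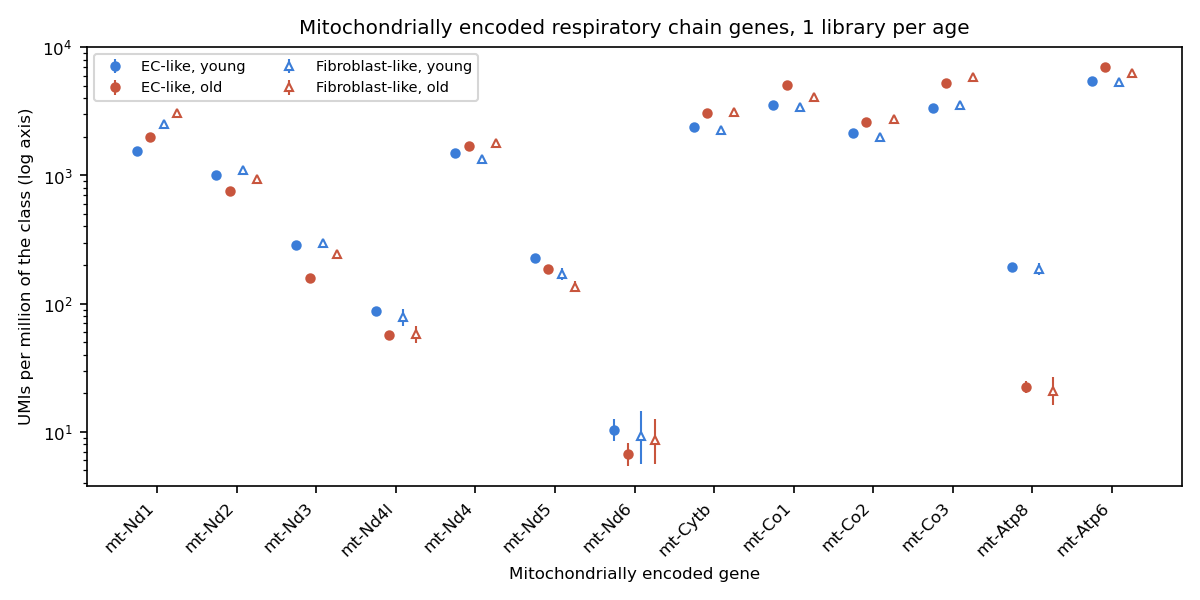
Level in CPM (y axis, log scale) of the 13 mitochondrially encoded members (x axis) in EC-like cells (filled circles) and fibroblast-like cells (open triangles), young in blue and old in red, with 95% counting intervals. mt-Atp8 stands apart, at 192 and 22.3 CPM in young and old EC-like cells, while mt-Co3 differs the other way (3376 and 5263 CPM).

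Complex II, succinate dehydrogenase, also works in the citric acid cycle and was the only complex without a higher sum in old cells of both classes. In EC-like cells its sum was 449 (young) and 460 CPM (old) (0.04, -0.02 to 0.09), and -0.03 when scaled by the median of ratios. The flavin subunit Sdha was 152 and 167 CPM (0.13, 0.04 to 0.22) and the iron-sulphur subunit Sdhb 136 and 159 CPM (0.22, 0.12 to 0.32). The membrane anchors Sdhc (81.6 and 70.8 CPM; -0.21, -0.34 to -0.07) and Sdhd (78.5 and 64.2 CPM; -0.29, -0.43 to -0.15) were lower in old. The catalytic and anchor subunits of EC-like cells thus lay on opposite sides of 1.

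In fibroblast-like cells the sum of complex II was 445 (young) and 344 CPM (old), a log2 ratio of -0.37 (-0.50 to -0.24), and it was below 0 under every scaling tried (-0.37 to -0.22). All 4 genes were lower in old (40.3% of all genes had a ratio above 1). Sdha was 110 and 92.2 CPM (-0.26, -0.52 to 0.00), Sdhb 163 and 136 CPM (-0.26, -0.47 to -0.05), Sdhc 79.7 and 62.6 CPM (-0.35, -0.66 to -0.04) and Sdhd 92.4 and 53.6 CPM (-0.79, -1.10 to -0.48). Sdhd had the lowest ratio of the 4 in both classes. The difference between the classes was not tested.

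Complex III, the cytochrome bc1 complex, had a higher nuclear sum and higher mt-Cytb in old cells of both classes, though not every member was resolved. All 8 nuclear members were above 1 in EC-like cells (background 58.9%) and in fibroblast-like cells (background 40.3%). Their sums were 2846 (young) and 3291 CPM (old) in EC-like cells (0.21, 0.19 to 0.23). In fibroblast-like cells the sums were 2092 and 2439 CPM (0.22, 0.17 to 0.28). The hinge subunit Uqcrh (chr4:116066965-116075071), the most abundant, was 710 (young) and 935 CPM (old) in EC-like cells (0.40, 0.36 to 0.44) and 481 and 716 CPM in fibroblast-like cells (0.57, 0.46 to 0.68). Uqcrq (0.25) and Uqcr10 (0.23) followed in size with the Rieske iron-sulphur subunit Uqcrfs1 (123 and 144 CPM; 0.23, 0.13 to 0.34). Uqcr11 was level at 527 and 541 CPM (0.04, -0.01 to 0.09) and lay on the other side of 1 when scaled by the median of ratios (-0.03), and the core protein Uqcrc2 was 110 and 116 CPM (0.07, -0.04 to 0.18). The single mitochondrial member, mt-Cytb, was 2394 and 3097 CPM in EC-like cells (0.37, 0.35 to 0.39) and 2257 and 3144 CPM in fibroblast-like cells (0.48, 0.43 to 0.53).

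Complex IV, cytochrome c oxidase, had the largest difference of the mitochondrial sums per complex in EC-like cells. Its 3 mitochondrial subunits, which form its core, summed to 9060 (young) and 12964 CPM (old) in EC-like cells (0.52, 0.51 to 0.53). mt-Co1 was 3553 and 5098 CPM (0.52, 0.50 to 0.54), mt-Co2 2130 and 2604 CPM (0.29, 0.27 to 0.31) and mt-Co3 3376 and 5263 CPM (0.64, 0.62 to 0.66). In fibroblast-like cells the log2 ratios were 0.26, 0.44 and 0.71. mt-Co3 was thus the highest of the 3 in both classes, while the order of mt-Co1 and mt-Co2 differed. The sum of the 3 in fibroblast-like cells had a log2 ratio of 0.49 (0.47 to 0.52), near that of mt-Cytb (0.48, 0.43 to 0.53). Within EC-like clusters the ratio of mt-Co3 was 0.25 in cluster 0, 0.27 in cluster 4, 0.18 in cluster 6, 0.10 in cluster 8 and -0.10 (-0.20 to 0.00) in cluster 7.

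Nuclear complex IV members had 12 of 18 genes with at least 100 UMIs in EC-like cells, of which 10 were above 1 (background 58.9%). Their median was 0.15 against 0.06 over all genes. Cox4i1 was 1002 and 1301 CPM in EC-like cells (0.38, 0.34 to 0.41) and 795 and 1061 CPM in fibroblast-like cells (0.42, 0.33 to 0.50). Cox7a2 was 549 and 672 CPM (0.29, 0.24 to 0.34), and Cox8a 638 and 722 CPM (0.18, 0.13 to 0.22). Cox6a1, Cox6b1 and Cox7a2l, the last known as a supercomplex factor, had smaller ratios of 0.07, 0.12 and 0.13. Cox7c (707 and 694 CPM; -0.03, -0.07 to 0.02) and Cox7b (219 and 216 CPM; -0.02, -0.10 to 0.06) were level. In fibroblast-like cells Cox7a2l was 368 and 553 CPM (0.59, 0.46 to 0.71).

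Cox6b2 (chr7:4751792-4753094), known as the testis form of subunit VIb, had the highest age ratio of the members with at least 100 UMIs in both classes, but at low level. It was 9.12 CPM in young (93 UMIs) and 17.2 CPM in old (250 UMIs) EC-like cells (0.92, 0.57 to 1.28), and 23.8 and 47.6 CPM in fibroblast-like cells (1.00, 0.52 to 1.5). With each cell thinned to 3100 UMIs, Cox6b2 had a UMI in 2.42% (1.56 to 3.58%) of the 992 young and in 5.68% (4.68 to 6.83%) of the 1865 old EC-like cells. In fibroblast-like cells it was found in 6.76% (3.83 to 10.9%) of 222 young and 12.6% (9.72 to 15.9%) of 469 old cells. Thinning left out 105 young and 567 old EC-like cells, and without it the EC-like shares were 7.02 and 9.05%. Among EC-like cells of 3000 to 10000 UMIs the log2 ratio was 1.88.

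Complex V had the most extreme member. mt-Atp8 was 192 CPM in young (1958 UMIs) and 22.3 CPM in old (324 UMIs) EC-like cells (log2 ratio -3.11, -3.28 to -2.94). It was 186 and 21.0 CPM in fibroblast-like cells (-3.15, -3.56 to -2.76), 186 and 16.6 CPM in monocyte or macrophage-like cells and 125 and 15.3 CPM in T or NK-like cells. In the 5 EC-like and 2 fibroblast-like clusters compared, its ratio ranged from -3.63 to -2.23. mt-Atp8 was therefore low in the old library in every class and cluster compared, with little difference between EC-like and fibroblast-like cells in either library (0.04 in young and 0.09 in old). mt-Atp6, encoded on the same mRNA, was 5479 and 6988 CPM in EC-like cells (0.35, 0.34 to 0.37) and 5339 and 6356 CPM in fibroblast-like cells (0.25, 0.22 to 0.29). Whether library preparation or counting differed between the libraries at the overlap was not tested.

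Of the 17 nuclear members named for complex V, 14 were above 1 in EC-like cells (background 58.9%). Their median was 0.15 against 0.06 over all genes, and the sum was 5806 and 6235 CPM (0.10, 0.09 to 0.12). The 3 genes that encode the same mature c subunit of the rotor ring differed. Atp5g1 was 257 (young) and 345 CPM (old) (0.42, 0.36 to 0.49), Atp5g2 452 and 480 CPM (0.09, 0.03 to 0.14) and Atp5g3 182 and 158 CPM (-0.21, -0.30 to -0.12). In fibroblast-like cells these ratios were 0.21, 0.46 and -0.31, so that Atp5g3 was lower in old in both classes. Atp5k (subunit e, 361 and 281 CPM; -0.36, -0.43 to -0.30) was the lowest nuclear member of the complex, and -0.33 in fibroblast-like cells. Atp5l (subunit g), the most abundant, was 589 and 698 CPM (0.24, 0.20 to 0.29). Atp5s, with 52 and 90 UMIs, was not resolved (0.28, -0.23 to 0.80).

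Some of these genes share sequence with other genes. Of the 97 members, 26 shared over 10% of the 50-base stretches in their last 500 bases with another annotated gene, 8 of them mitochondrial and 18 nuclear. The shared part was 95.3% for mt-Co1, 100% for mt-Co2, 99.3% for mt-Atp6, 99.8% for mt-Co3, 98.0% for mt-Nd3 and 98.8% for mt-Nd4l, and 45.9% for Atp5g1 and 47.3% for Atp5g2. It was 0 for mt-Nd1, mt-Nd4, mt-Cytb, mt-Atp8 and mt-Nd6. Stretches of 50 bases cannot show the overlaps of mt-Atp8 with mt-Atp6 (43 bases) and of mt-Nd4l with mt-Nd4 (7 bases). The genes sharing with these mitochondrial members over 95% and with Atp5g2 are not among the gene names counted here. Atp5g1 shared its stretches with 96 genes, many of them counted. The effect of shared sequence on the counts was not tested, and the shared part does not measure it. Without the 26, the EC-like log2 ratios were 0.27 for the mitochondrial and 0.17 for the nuclear sum.

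EC-like and fibroblast-like cells were compared within each library. The nuclear sum was 22847 CPM in EC-like and 19806 CPM in fibroblast-like cells of the young library (log2 ratio 0.21, 0.19 to 0.22) and 25587 against 21645 CPM in the old library (0.24, 0.23 to 0.25). The members did not stand out from other genes in this: the median over all genes was 0.17 in young and 0.35 in old, and with scaling by the median of ratios the nuclear sums became 0.031 and -0.10. Of 76 nuclear members with at least 100 UMIs in young, 56 were above 1 (background 60.6%), and 64 of 77 in old (background 68.9%). With scaling by the median of ratios these counts were 38 and 32. The mitochondrial sums hardly differed (-0.03 in both libraries), and their sign turned, to 0.0088 and 0.026, when each cell was weighted equally. Above 1 were 9 of 13 mitochondrial members in young and 4 in old, and 1 in each with the median of ratios.

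Complex III was the complex whose nuclear sum was higher in EC-like cells of both libraries under all scalings. Its nuclear sum had a log2 ratio of 0.44 (0.40 to 0.49) in young and 0.43 (0.40 to 0.47) in old, and 0.27 and 0.09 with scaling by the median of ratios. The core proteins were among its highest: Uqcrc1 was 165 CPM in young EC-like and 105 CPM in young fibroblast-like cells (0.65, 0.44 to 0.86), and 185 and 112 CPM in old (0.72, 0.56 to 0.89). Uqcrc2 had ratios of 0.66 (0.41 to 0.92) and 0.67 (0.46 to 0.88). Outside this complex, Cox7a2 had ratios of 0.75 and 0.84. At least 1.5-fold higher in EC-like cells were 9 of 76 nuclear members in young (background 28.6%) and 15 of 77 in old (background 36.4%). The 6 that were so in both libraries were Uqcrc1, Uqcrc2, Cox7a2, Uqcrb, Ndufa6 and Atp5sl, the last 3 named after their values were seen.

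Below 1, that is, higher in fibroblast-like cells, were 24 of 89 counted members of both genomes in young and 22 of 90 in old. The share above 1 was thus 73.0% and 75.6% of members, against 60.6% and 68.9% of all genes. At least 1.5-fold lower in EC-like cells were 2 nuclear members in young, Cox6b2 and Ndufa11 (background 15.8%), and Cox6b2 in old (background 13.1%). Cox6b2 was at -1.38 (-1.90 to -0.85) in young and -1.47 (-1.77 to -1.16) in old. Cox7b was 219 CPM in EC-like and 277 CPM in fibroblast-like cells of the young library (-0.34, -0.47 to -0.20), and 216 and 300 CPM in old (-0.47, -0.58 to -0.36). Ndufv3 was also lower in EC-like cells (-0.43 and -0.25). Among mitochondrial members, mt-Nd1 was 1553 CPM in EC-like and 2506 CPM in fibroblast-like cells of the young library (-0.69, -0.74 to -0.64) and 1997 and 3092 CPM in old (-0.63, -0.66 to -0.60). mt-Nd5 differed the other way (0.42 and 0.48). Complex II was level in young (0.01, -0.09 to 0.11) and higher in EC-like cells in old (0.42, 0.32 to 0.51), where the median over all genes was 0.35. With the median of ratios these values were -0.16 and 0.07.

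**Figure D4:**
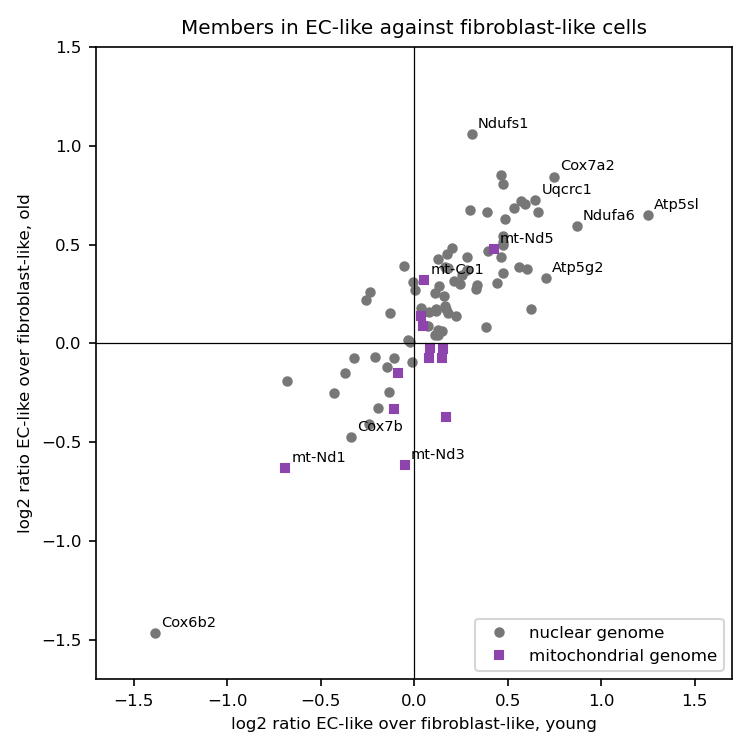
Log2 ratio of EC-like over fibroblast-like level in the young (x axis) and the old library (y axis) for each member with at least 100 UMIs in both, nuclear in grey and mitochondrial in purple. Cox6b2 lies at the lower left (-1.38 and -1.47) and mt-Nd1 is the lowest mitochondrial gene in both libraries (-0.69 and -0.63), while Cox7a2 and Uqcrc1 lie at the upper right.

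The muscle, testis and hypoxia forms of subunits were rare. In EC-like cells 7 of the 84 nuclear members had under 100 UMIs: Ndufa4l2, Cox4i2, Cox6a2, Cox7a1, Cox7b2, Cox8b and Cox8c. Cox7a1, the heart and skeletal muscle form of subunit VIIa, had 42 UMIs in young and 48 in old EC-like cells (4.12 and 3.30 CPM) and 0 and 4 in fibroblast-like cells. Cox8b had 19 and 12 UMIs in EC-like and 0 in fibroblast-like cells. Cox4i2 and Cox7b2 had 0 and 2 UMIs, Cox6a2 had 0 and 1, and Cox8c 0 and 3. The ubiquitous forms Cox4i1, Cox6a1, Cox7a2 and Cox8a were far more abundant in the same cells.

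Ndufa4l2 (chr10:127514967-127517154), the hypoxia-inducible relative of Ndufa4, was found mainly in fibroblast-like cells. It was 26.7 CPM in young (55 UMIs) and 5.99 CPM in old (18 UMIs) fibroblast-like cells, and 0.588 and 0.138 CPM in EC-like cells (6 and 2 UMIs). At 3100 UMIs per cell, a UMI was held by 7.66% (4.52 to 12.0%) of the young and 0.640% (0.132 to 1.86%) of the old fibroblast-like cells. The unthinned shares were 11.7 and 2.27%. Most of the young UMIs came from cluster 2, where it was 69.1 CPM (48 UMIs, 99 cells) in young and 41.3 CPM (8 UMIs, 61 cells) in old (-0.74, -2.04 to 0.35). In cluster 3 it was 5.14 CPM (7 UMIs) and 3.56 CPM (10 UMIs; -0.53, -2.07 to 1.10). No age difference was thus resolved within a cluster, and age and the mix of clusters cannot be told apart in the pooled difference. In EC-like cells, which serve here as the level that free RNA could give, the thinned shares were 0.302 and 0.0536%, at median depths of 7373 and 5047.5 UMIs against 8440 and 4830 in fibroblast-like cells. Its common relative Ndufa4 was 639 and 700 CPM in EC-like cells (0.13, 0.09 to 0.18) and 459 and 400 CPM in fibroblast-like cells (-0.20, -0.32 to -0.07).

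The balance of the genomes varied by class. The mitochondrial sum divided by the nuclear sum was 0.954 in young and 1.09 in old EC-like cells, and 1.13 and 1.31 in fibroblast-like cells. It was 1.15 and 1.40 in monocyte or macrophage-like cells (13 and 157 cells) and 0.809 and 1.32 in T or NK-like cells (10 and 123 cells). Among the leading genes of the T or NK-like cluster were also the B cell gene Ly6d and cycling genes. The 11 smooth muscle-like cells, all from the old library, had the highest value of the classes with more than 1 cell, 2.35, with the highest sums of both kinds: 75336 CPM mitochondrial and 32075 CPM nuclear. The 37 old erythroid-like cells had the lowest sums, 7204 and 5406 CPM, in a class whose UMIs were 771790 CPM haemoglobin.

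**Figure D5:**
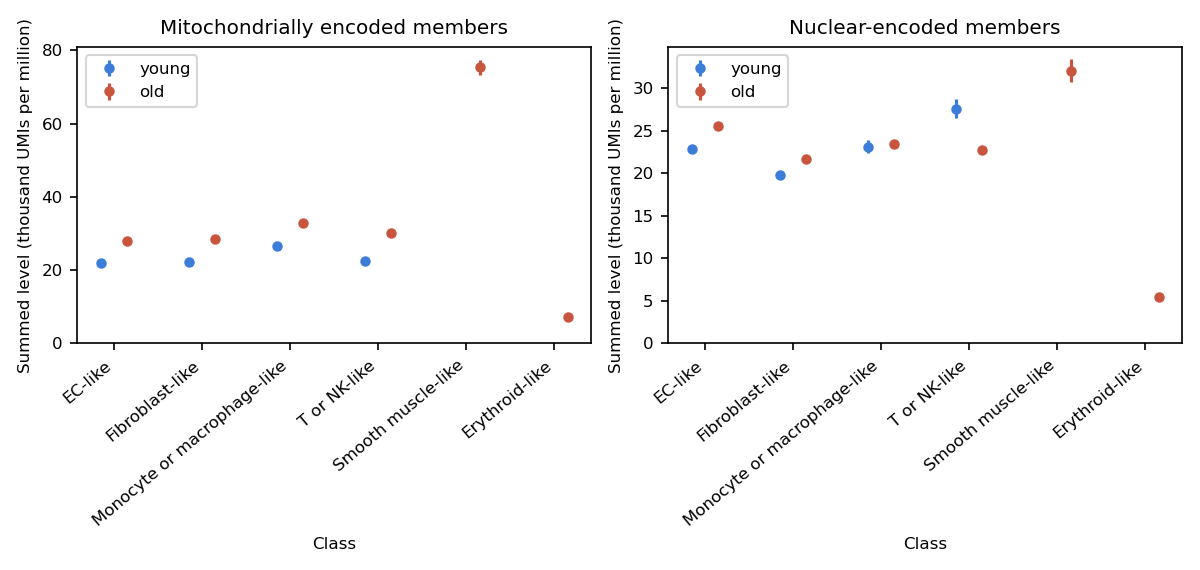
Summed level in units of 1000 CPM (y axis) of mitochondrial (left) and nuclear (right) members in each marker-defined class (x axis), young in blue and old in red, with 95% counting intervals. Old smooth muscle-like cells (11 cells) are highest in both panels and old erythroid-like cells (37 cells) lowest, at 7204 and 5406 CPM.

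Immune-like classes of the old library differed from old EC-like cells gene by gene. In monocyte or macrophage-like cells the mitochondrial sum had a log2 ratio of 0.24 and the nuclear sum -0.13, beside a median of -0.53 over all genes. Above 1 were 22 of 76 nuclear members (background 26.5%). The largest positive values among members with at least 100 UMIs were those of mt-Nd1 (3617 CPM; 0.86, 0.80 to 0.91) and Cox7b (328 CPM; 0.60, 0.41 to 0.79). Ndufs1 was 11.5 CPM (-1.59, -2.73 to -0.65) and Sdha 83.0 CPM (-1.0, -1.38 to -0.65). At least 1.5-fold lower than in EC-like cells were 10 of 76 nuclear members (background 47.7%), and 1 was as much higher (background 11.8%). In T or NK-like cells mt-Nd1 was again higher (3204 CPM; 0.68, 0.60 to 0.76), as was Uqcrfs1 (243 CPM; 0.75, 0.44 to 1.05). There 20 of 76 nuclear members were above 1 (background 30.5%), and 14 of 76 nuclear members were at least 1.5-fold lower (background 46.3%) and 2 higher (background 13.2%). The second of those 2, Cox6b2, was 40.9 CPM (interval of the log2 ratio 0.42 to 1.98) but came from 6 of 123 cells, 1 of them with 6 UMIs. In old erythroid-like cells 75 of 76 counted nuclear members were at least 1.5-fold lower (background 94.5%), and none was as much higher (background 0.713%). The 1 counted member above EC-like cells (background 1.79%) was Cox6b2, at 18.2 CPM from 3 UMIs (0.08, -2.21 to 1.64), followed by mt-Atp8 at 12.1 CPM from 2 UMIs (-0.88, -3.93 to 0.98), and neither was resolved.

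Genes that assemble and serve the chain were counted from lists, beside the EC-like background of 18.0% higher and 11.8% lower. Of 13 complex I assembly factors with at least 100 UMIs, 5 passed the age limit upward and 1 downward, with a median of 0.25, and Ndufaf6 was the highest (6.96 and 10.7 CPM; 0.62, 0.20 to 1.04). Of 18 complex IV assembly factors, 3 were higher and 3 lower, with a median of 0.06. The lower ones were Cox15, an enzyme of haem A synthesis (12.7 and 2.82 CPM; -2.16, -2.71 to -1.65), the assembly factor Cox16 (19.2 and 8.47 CPM; -1.18, -1.52 to -0.85) and the copper chaperone Cox17 (233 and 149 CPM; -0.65, -0.73 to -0.56). In fibroblast-like cells Cox15 was at -3.79 (-6.94 to -1.74) from 19 and 2 UMIs. Cox16 was at -1.11 (-1.91 to -0.34) from 37 and 25 UMIs, so both had under 100 UMIs there. Cox17 was not resolved in these cells (-0.21, -0.51 to 0.08). The medians for assembly of complexes II, III and V were 0.16, 0.23 and 0.21. The genes given here from these lists were named after their values were seen.

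Factors of mitochondrial and nuclear transcription were counted in the same way. Of 10 genes of mitochondrial DNA expression with as many UMIs, 0 passed the limit upward and 1 (Mterf3, -0.52, -0.76 to -0.28) downward in EC-like cells. Tfam, which packs and transcribes mitochondrial DNA, was 26.2 and 30.8 CPM (0.23, 0.01 to 0.46). Of 6 nuclear regulators, 2 passed the limit upward (background 18.0%), the coactivator Pprc1 (6.77 and 9.64 CPM; 0.51, 0.08 to 0.95) and the zinc finger factor Yy1 (50.9 and 63.7 CPM; 0.32, 0.17 to 0.48). Nrf1, Gabpa and Esrra had intervals that included 0 (0.05, 0.06 and 0.11). Cycs, the cytochrome c that links complexes III and IV, was 82.0 and 76.2 CPM (-0.11, -0.24 to 0.03), and the proton carrier Ucp2 was 6.87 and 11.4 CPM (0.73, 0.31 to 1.15). Of 76 mitochondrial ribosomal protein genes, 20 were higher and 1 lower, with a median of 0.21 beside 0.19 for nuclear chain members.

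Promoters of nuclear members were read for sites of factors known to drive the chain. RefSeq promoters of 300 bases (250 before to 50 after the start, GRCm38.p6) matched 69 of the 84 nuclear members. The NRF1 pattern GCGCNTGCG lay on either strand in 24 of 69 (34.8%) against 7.12% of all 27025 genes. The ETS pattern CCGGAAG, bound by GABPA, lay in 16 (23.2%) against 9.93%. The YY1 pattern AAGATGGCG lay in 8 (11.6%) against 1.64%, and the CCAAT box in 31 (44.9%) against 41.1%. No pattern contains another. The 27025 genes were not matched to the members for expression or base composition, and these differences were not tested. Promoters are shown for Sdha, with 3 NRF1 matches, for Sdhd, which holds both patterns, and for Uqcrh, with an ETS match and no NRF1 match. NRF1 and ETS matches on either strand are in capitals, and all 3 genes are on the minus strand.

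Sdha, chr13:74350191-74350490: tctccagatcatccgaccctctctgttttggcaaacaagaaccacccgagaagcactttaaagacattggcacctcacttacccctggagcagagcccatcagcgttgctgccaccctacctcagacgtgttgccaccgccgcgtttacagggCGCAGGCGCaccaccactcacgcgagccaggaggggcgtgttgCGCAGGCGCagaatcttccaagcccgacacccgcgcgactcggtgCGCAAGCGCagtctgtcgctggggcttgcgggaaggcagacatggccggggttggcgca
Sdhd, chr9:50603800-50604099: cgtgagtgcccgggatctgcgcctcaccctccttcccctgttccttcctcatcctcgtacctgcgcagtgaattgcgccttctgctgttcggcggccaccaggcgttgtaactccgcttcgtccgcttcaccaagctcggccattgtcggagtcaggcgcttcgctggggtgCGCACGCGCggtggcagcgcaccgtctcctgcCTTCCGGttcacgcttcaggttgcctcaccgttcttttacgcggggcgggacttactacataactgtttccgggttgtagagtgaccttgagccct
Uqcrh, chr4:116075021-116075320: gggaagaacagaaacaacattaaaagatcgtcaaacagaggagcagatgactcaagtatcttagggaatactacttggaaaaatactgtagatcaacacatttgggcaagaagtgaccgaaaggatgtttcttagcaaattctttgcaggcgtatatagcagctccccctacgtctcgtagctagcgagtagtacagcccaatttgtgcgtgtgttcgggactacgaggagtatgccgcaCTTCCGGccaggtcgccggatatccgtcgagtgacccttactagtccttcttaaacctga

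Members with and without these patterns had similar age ratios. In EC-like cells their median age ratio (log2) was 0.18 over 24 members with an NRF1 match and 0.20 over 42 without. It was 0.19 over 16 members with an ETS match and 0.19 over 50 without. The genes whose promoters are shown differed among themselves, at 0.13 (Sdha), -0.29 (Sdhd) and 0.40 (Uqcrh).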

How the data were processed

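Deposited whole-number counts of UMIs per gene and barcode, not normalized, were used from a young and an old library. Per the labels' protocols the authors loaded 8700 cells for a target of 5000 and used a droplet 3′ kit. Cell Ranger and the GRCm38 build are named per the submitters' processing notes, while versions, annotation and overlap handling were not given in the sources used here. Barcodes had to show 200 genes or more and no more than 10% mitochondrial UMIs. Of the young barcodes 1 exceeded that limit, of the old ones 35, and another 37 old barcodes had too few genes. The limit rests on the same mitochondrial genes that are members. Scrublet marked 5 young and 4 old doublets (0.366 and 0.120%), too few to have worked as a filter.

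Cells were scaled to 10000 UMIs and clustered with scanpy 1.11.5 (with igraph 0.11.9 under Python 3.11.15; scipy 1.17.1 and numpy 2.4.6 served for intervals; genes in at least 3 cells, 2000 variable genes of which 10 were members, 30 components, 15 neighbours, Leiden resolution 0.5). A cluster took the class with the largest mean share of cells expressing its markers, with at least 3 markers in 25% of cells. Trac, Trbc2, Ighm, Ighd and Igkc were not found among the gene names used. UMIs were summed per class and library and scaled to the class total (CPM). Each log2 ratio has an exact conditional binomial 95% interval. A test was not possible, as an age has 1 library. Members with at least 100 UMIs in the compared sums were counted as past 25% higher or 20% lower between ages (the same fold), or 1.5-fold between classes. The code was tested on simulated data.

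Members and lists were chosen with earlier results of these data known. Named genes are all mitochondrial members, subunit isoform families, core subunits of complex I, complex II, per complex the most abundant nuclear member and the 2 highest and 2 lowest age ratios, the 3 highest and 3 lowest class ratios, and the 2 members highest in each other class of at least 20 cells. 1 gene that the rule names is not reported here. Other scalings, filters, class rules, depth limits and gene minimums were tried. Motif patterns were shortened to at most 9 letters after longer forms had been counted. Shares of cells used cells thinned to 3100 UMIs.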

Additional observations from a re-analysis of the deposited data

Results flagged for a closer look

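Sdhb had a log2 ratio of old over young of 0.22 in EC-like cells and of -0.26 in fibroblast-like cells, with counting intervals on opposite sides of 0. Ndufa4 did likewise, at 0.13 in EC-like and -0.20 in fibroblast-like cells. With scaling to the class total, these are the members whose intervals excluded 0 in opposite directions in the 2 classes. Fibroblast-like ratios moved up by 0.15 without mitochondrial, haemoglobin and ribosomal protein genes, and by 0.086 with the median of ratios. Either move brings 0 into the fibroblast-like intervals of both genes. The difference between the classes was not tested, since there is 1 library per age.

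Barcodes over the limit of 10% mitochondrial UMIs were left out of the comparisons, and 13 of those in the old library fell into the smooth muscle-like class when the limit was lifted, against 0 in the young library. The class then held 24 old cells with 6.01 to 59.0% mitochondrial UMIs (median 15.9%), at 138522 CPM for the mitochondrial and 29555 CPM for the nuclear sum.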

How the results depend on the processing

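The age ratios of all 4 sums were above 0 under the scalings, filters, class rules, depth limits and groups of clusters listed here, but within single EC-like clusters the mitochondrial ratio was -0.29 (cluster 7) and -0.15 (cluster 8). Class ratios changed sign under some settings. Values follow as log2 ratios in the order EC-like mitochondrial, EC-like nuclear, fibroblast-like mitochondrial and fibroblast-like nuclear, and only where they left the counting interval of the reported value. The EC-like mitochondrial ratio was 0.38 with no mitochondrial limit and 0.33 with a limit of 5%. Scaling outside the mitochondrial genome gave 0.37 and 0.17 in EC-like cells. Scaling without mitochondrial, haemoglobin and ribosomal protein genes gave 0.39, 0.20, 0.50 and 0.28, and the median of ratios gave 0.29, 0.10, 0.44 and 0.21. Equal weight per cell gave 0.33, 0.18 and 0.32 for the first 3. Cells of 3000 to 10000 UMIs gave 0.31 in EC-like mitochondrial, and 0.26 and 0.19 in fibroblast-like sums. Leaving out members with shared sequence gave 0.27 (EC-like mitochondrial) and 0.10 (fibroblast-like nuclear).

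Class ratios of EC-like over fibroblast-like, in the order young mitochondrial, young nuclear, old mitochondrial and old nuclear, were -0.016, 0.22, -0.13 and 0.14 without mitochondrial, haemoglobin and ribosomal protein genes, and -0.21, 0.031, -0.37 and -0.10 with the median of ratios. They were 0.0088, 0.23, 0.026 and 0.27 with equal weight per cell. With a limit of 5% the old mitochondrial ratio was -0.051. With cells of 3000 to 10000 UMIs the young nuclear ratio was 0.28 and the old mitochondrial ratio 0.017. The old nuclear ratio under the median of ratios, and the mitochondrial ratios with equal weight and at 3000 to 10000 UMIs, had the opposite sign. The median of ratios sets the median of all genes to 0 by construction. The cause of the other sign changes was not tested.

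Of nuclear members in EC-like cells, 6 instead of 11 were at least 25% higher with the median of ratios, and 5 instead of 3 lower with no minimum beyond 1 UMI in each library. Alternatives added after seeing the data gave 0.37 and 0.18 (EC-like, mitochondrial and nuclear) in clusters 1 and 8, and 0.28 (mitochondrial) in clusters 0, 6 and 7. Each of these groups joins a mostly young cluster to mostly old cells, so it cannot separate cluster from age. Fibroblast-like cluster 2 gave 0.56 (mitochondrial), and cluster 3 gave 0.37 and 0.10. Cells under 5000 UMIs gave 0.067, 0.21, 0.19 and 0.18, and deeper cells gave 0.35 (EC-like mitochondrial), 0.32 and 0.15 (fibroblast-like). Of the EC-like age ratios of named genes under alternatives, 433 stayed within the reported counting interval and 52 (of 28 genes) did not. Single clusters, groups of clusters, the split at 5000 UMIs and equal weight per cell were not among these alternatives. The counts therefore do not show how named genes depend on the mix of clusters. Among the genes reported here, the sign changed for some whose interval included 0: Uqcr11 (-0.025) with the median of ratios, Cox7b (0.013) and Cox7c (0.0087) without mitochondrial, haemoglobin and ribosomal protein genes, and Uqcrc2 (-0.056), Atp5s (-0.51) and Cox7a1 (0.38) in cells of 3000 to 10000 UMIs. No paired analysis was possible because each age has 1 library. Depth limits Atp5s, mt-Nd6 and the isoforms under 100 UMIs, whose intervals are wide.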
